A study of Mus musculus with 6 samples.

Results

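The clustered protocadherins are cell surface cadherins of neurons whose genes stand side by side in 3 groups on mouse chromosome 18. They were taken from the deposited table of normalized read counts as every protein-coding gene in GENCODE M21 whose symbol names a member of the alpha, beta or gamma cluster, which gave 57 of the 46078 genes listed. There were 14 alpha members between 36930184 and 37187661, 22 beta members between 37264938 and 37524479, and 21 gamma members between 37661793 and 37841873, all on the plus strand of GRCm38. The rule used gene symbols and no measured value, but the members were chosen with earlier results of these data known.

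RNA was sequenced from the striatum of 3 transgenic (TG) mice that carry an EGFP-Shank3 transgene and 3 wild-type (WT) mice, all male C57BL/6J animals aged 12 weeks, with 1 library per mouse. The transgene encodes Shank3, a scaffold protein of the excitatory postsynapse, fused to a green fluorescent protein, so that TG mice hold more Shank3 than WT mice. The promoter that drives the transgene is not given in the sources used here. The comparison asked which striatal transcripts differ between mice with and without additional Shank3.

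Each clustered protocadherin binds in a homophilic way, that is, to the same isoform on a facing membrane, and the combination of isoforms that a neuron displays lets its own branches recognise and avoid each other. In the alpha and gamma clusters every member has its own promoter and its own large variable exon, which encodes the extracellular and transmembrane parts, and this exon is spliced to constant exons that all members of the cluster share. Beta genes have no constant exons and are mostly single-exon genes. Most promoters are chosen stochastically in each neuron through DNA methylation and through loops held by CTCF and cohesin, whereas the C-type members (Pcdhac1, Pcdhac2, Pcdhgc3, Pcdhgc4 and Pcdhgc5), which stand last in their clusters, are used more uniformly across neurons.

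The libraries held between 27689589 and 36647626 reads on genes. Shank3 was at 29891, 28309 and 26044 normalized read counts in the TG mice and at 13807, 12918 and 13865 in the WT mice, a log2 fold change of 1.05 ± 0.06 (SE, adjusted P value of 7.04e-05, limma), so the libraries matched their labels. Markers of medium spiny neurons, the main striatal cell type, summed to 121107 to 169974 in TG and 146602 to 169556 in WT mice, and all 9 of them were detected. All 10 choroid plexus markers were detected as well, and they summed to 15243 in TG mouse 1, 1550 in TG mouse 2 and 362 in TG mouse 3, beside 315 to 651 in the WT mice. The sum of 5 microglial markers did not overlap between the genotypes (8112 to 8739 in TG and 8827 to 9111 in WT), nor did that of 3 markers of oligodendrocyte precursors (3984 to 4280 and 4318 to 4641). Taken singly, 3 of the 5 microglial markers and 0 of the 3 precursor markers did not overlap, beside 10.1% of all genes tested. The smallest adjusted P value in each of these lists was 0.971 (limma). The 7 other marker lists overlapped, and the part of these cells in the values below was not tested. In tissue RNA, fewer cells of a type and less RNA per cell cannot be told apart.

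Gene-level counts see the members unequally. A read that lies on an exon annotated to several genes belongs to no single gene in the usual counting, so only exon bases that no other gene covers were taken as countable (called own exon bases here). Of the annotated exon bases, the alpha members other than the C-types kept between 7.0% and 46.7%, with a median of 45.7%. The constant exons are lost to all of them, and the lowest values belong to Pcdha4, which the read-through gene Gm42416 also covers, and to Pcdha11, which antisense transcripts cover. The gamma A members kept a median of 53.8% and the gamma B members 55.7%. The beta members kept a median of 100%, and the lowest beta value, 36.5%, was that of Pcdhb12, which an antisense transcript overlaps. In all, 13 members shared exon bases with a gene on the opposite strand. For Pcdhga10 (ENSMUSG00000102222) no own exon base was left, since Gm26672 on the opposite strand covers the part of it that is not shared with other gamma members, and it was listed at 0 in all 6 libraries. Nothing about its expression can be read from this table. Where bases overlapped from the opposite strand were counted as own, the level per kb of Pcdhb12 moved from 81.1 to 29.6, that of Pcdhga11 from 255.6 to 122, that of Pcdhgc3 from 437 to 235 and that of Pcdha11 from 1.11 to 0.304. Whether the counting used strand is not given in the sources used here. Pcdhga10 was listed at 0 although no other gene on its own strand covers 2613 of its bases. The antisense genes Gm38225 and Gm37118, without own exon bases, were at 0 as well. Counting without regard to strand would give such zeros, and bases overlapped from the opposite strand would then hold no counted reads.

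Some variable exons also hold stretches that recur in another member, where a read has no single origin. Of all windows of 1 read length in the first exon, 9.57% in Pcdhgb1, 9.56% in Pcdha11 and 9.01% in Pcdhgb2 occurred at the place of another member. Next came Pcdha10 (7.59%), Pcdha3 (7.50%), Pcdha7 (7.19%) and Pcdha1 (6.95%), and the levels of these members are less certain for it. No window of a C-type member occurred in another member. Annotated exons of neighbours overlap in Pcdhga4, Pcdhb21, Pcdhb22 and, over a short stretch, Pcdhga8, and those bases were left out of their own exon bases. The symbol Pcdha11 stands on 2 rows of GENCODE M21. The row ENSMUSG00000007440 begins where RefSeq places Pcdha10 on the same assembly and is called Pcdha10 here, and the row ENSMUSG00000102206 is called Pcdha11.

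C-type members led the alpha and the gamma cluster in the striatum. Per kb of own exon, Pcdhgc5 (ENSMUSG00000102543) stood first of the 56 members with a countable exon at 760 ± 24.9 normalized read counts (SD over the 6 mice). Pcdhgc3 (ENSMUSG00000102918), which restrains Wnt signaling through Axin1, followed at 437 ± 23.0, and Pcdhac2 (ENSMUSG00000102697), needed for the spacing of serotonergic axons, at 304 ± 18. These 3 levels did not overlap in any pair over the 6 libraries. The order of Pcdhgc3 and Pcdhac2 rests on the bases counted, since an antisense transcript covers part of the Pcdhgc3 exon. With opposite-strand overlaps counted as own, Pcdhgc3 was at 235 and Pcdhac2 at 304 per kb, and over all exon bases they were at 145 and 156. The level of Pcdhgc5 was above that of 90.8% of the 20915 protein-coding genes with at least 500 own exon bases, and the level of Pcdhac2 was above that of 77%.

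The C-type members were far from uniform. Pcdhac1 reached only 31.8 ± 2.76 per kb, within the range of the stochastically chosen alpha members and 9.55-fold below Pcdhac2. Pcdhgc4 (ENSMUSG00000023036), on which the survival of interneurons depends, reached 88.5 ± 8.92 per kb, which is 8.58-fold below Pcdhgc5. Pcdhac2 made up between 45.8% and 48.8% of all counts assigned to alpha members in a library. Pcdhgc5 made up between 32.6% and 35.0% of the gamma counts and Pcdhgc3 between 6.88% and 8.36%. These are shares of counts, which depend on the own exon bases of a member (4606 for Pcdhgc5, 1821 for Pcdhgc3). As a share of the summed mean levels per kb of its cluster, Pcdhac2 held 39.83%, Pcdhgc5 20.99% and Pcdhgc3 12.07%.

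**Figure D1:**
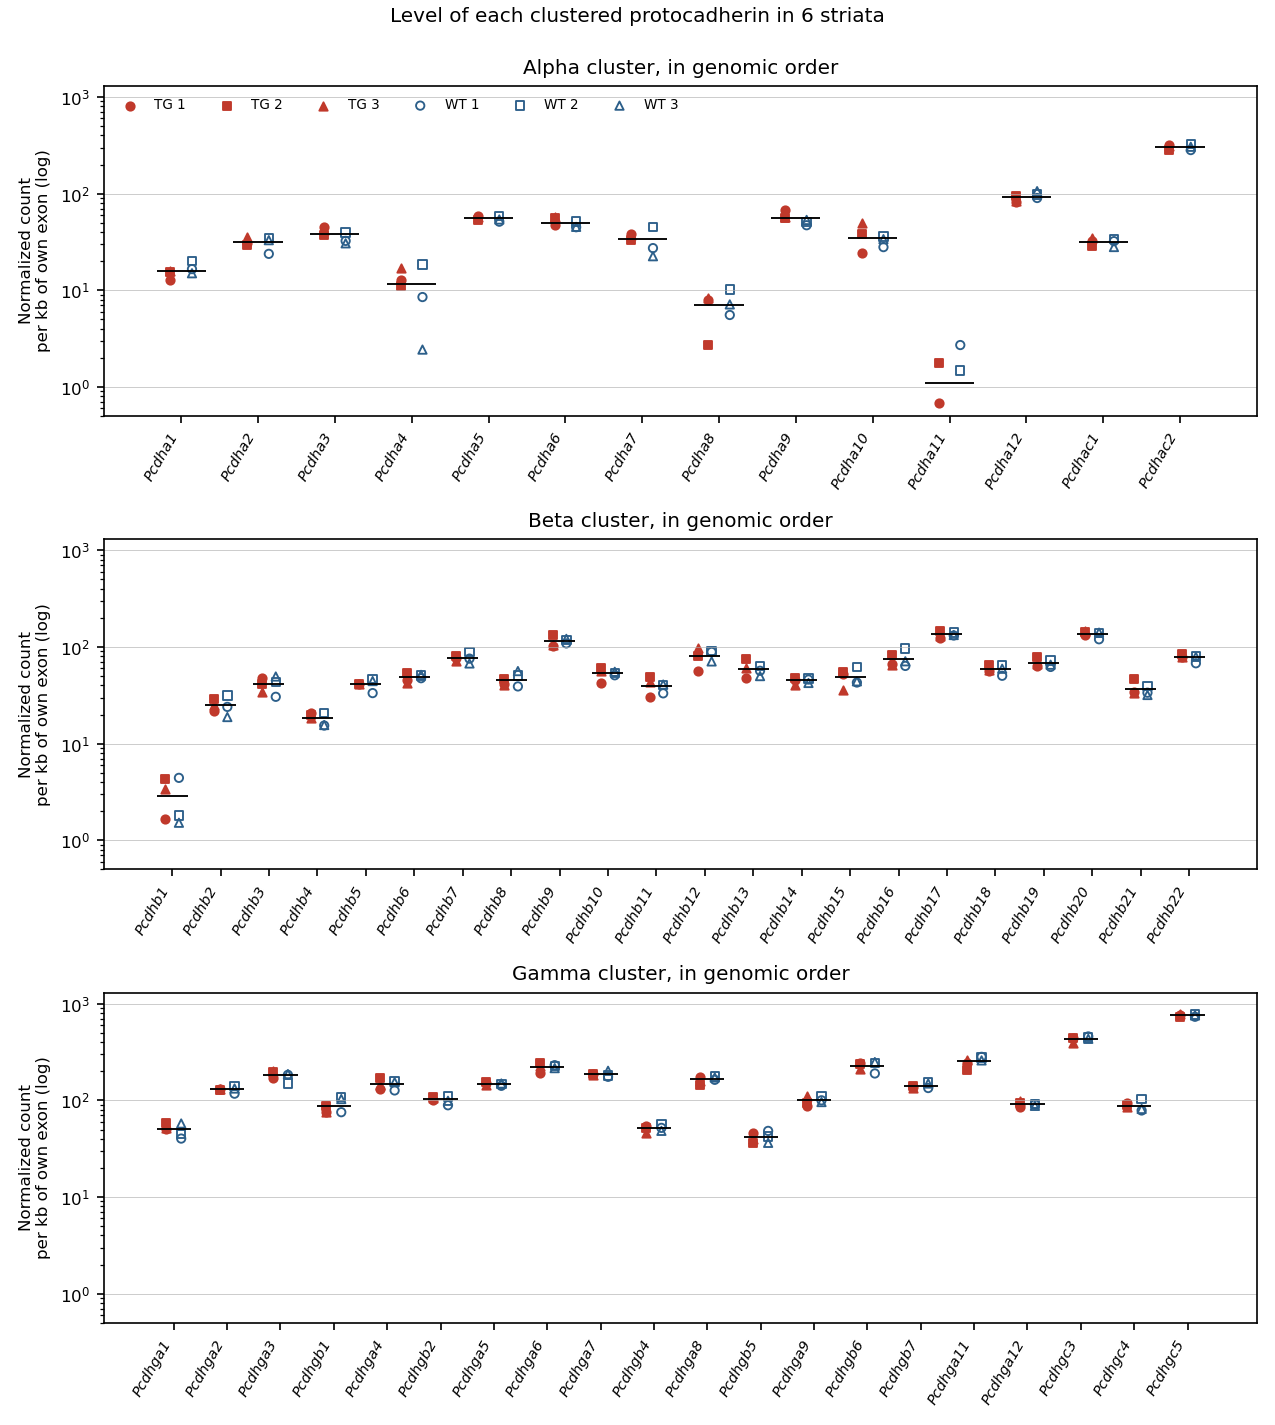
Normalized read count per kb of own exon bases (log axis) of each member in genomic order, one panel per cluster, with filled red symbols for the TG mice, open blue symbols for the WT mice and a black line at the mean of the 6 libraries. Pcdhac2, Pcdhgc3 and Pcdhgc5 stand above the other members of their clusters at 304, 437 and 760, Pcdha11 is not drawn in the 2 libraries where it was listed at 0, and Pcdhga10 has no own exon bases and is left out.

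The stochastically chosen alpha members were the lowest group, with a median of 34.5 normalized read counts per kb. They ran from 1.11 (Pcdha11, most of whose first exon other genes also cover) to 92.3 (Pcdha12). Alpha isoforms signal through their shared cytoplasmic tail, which binds the WAVE complex and restrains the kinases Ptk2 and Ptk2b. Pcdha12 was higher than the next member, Pcdha9, in all 6 libraries (92.3 ± 9.01 against 55.4 ± 7.19 per kb). Pcdha9 and Pcdha5 could not be ordered, at 55.4 and 55.3 per kb, and each was higher in 3 libraries. The stretch from Pcdha3 over Pcdha10, Pcdha7 and Pcdhac1 to Pcdha2 lay between 37.9 and 31.3 per kb, and no neighbouring pair within it kept its order in all 6 libraries. Over the whole alpha cluster 5 of 13 neighbouring pairs in the order of levels kept their order in every library.

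Low alpha members rest on few reads. Pcdha8 was at 19.7, 6.74 and 20.4 normalized read counts in the TG mice and at 13.7, 25.3 and 17.7 in the WT mice. Pcdha4 stayed between 0.982 and 7.48, over only 404 own exon bases, and Pcdha11 between 0 and 3.43. Both fell short of the mean of 10 normalized read counts required for testing. Of their first-exon windows of 1 read length, 2400 of 2804 in Pcdha4 and 2386 of 3223 in Pcdha11 also occurred in another gene. How far the low levels of Pcdha4 and Pcdha11 reflect this loss of countable sequence was not tested.

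Beta members, which form mixed recognition units with alpha and gamma isoforms, had a median of 51.2 per kb. Their levels ran from 2.86 ± 1.36 for Pcdhb1 to 138 ± 9.72 for Pcdhb20, with Pcdhb17 at 135 ± 8.41 and Pcdhb9 at 115 ± 11.4. Pcdhb20 and Pcdhb17 were each higher in 3 libraries and were not ordered, whereas Pcdhb17 exceeded Pcdhb9 in all 6 libraries. Pcdhb1, whose promoter lacks the conserved CTCF-binding element of the other beta promoters, was at 4.29, 11.2 and 8.76 normalized read counts in the TG mice and at 11.4, 4.68 and 3.93 in the WT mice. It was the only beta member under the limit for testing. In the order of levels 6 of 21 neighbouring pairs kept their order in all libraries.

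Beta members toward the far end of the cluster were higher. The median over Pcdhb1 to Pcdhb11 was 41.3 per kb and that over Pcdhb12 to Pcdhb22 was 68.3 per kb. The Spearman correlation of order along the cluster with level was 0.57 over the 22 beta members (0.52 to 0.65 in single libraries) and 0.50 without Pcdhb1. These points come from the same 6 libraries and differ in exon length and base composition, so the correlation is a description. Order and level were related less in the other clusters, at 0.20 over 12 alpha members and 0.19 over 17 gamma members, C-types left out. The gamma value changed sign, to -0.10, when exon bases overlapped from the opposite strand were counted as well.

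The gamma cluster was the most abundant per kb. Gamma A members had a median of 148 per kb and a range from 50.5 (Pcdhga1) to 256 (Pcdhga11), and gamma B members a median of 95.2 and a range from 41.6 (Pcdhgb5) to 229 (Pcdhgb6). Gamma isoforms take part in dendrite self-avoidance and in the survival of neurons. Pcdhga11 (255.6 ± 27.3), Pcdhgb6 (229 ± 23.2) and Pcdhga6 (223 ± 17.8) followed the leading C-types, and neither pair of neighbours among these 3 kept its order in every library. The own exon of Pcdhga11 is short (1256 bases, 26.4% of its exons), which makes its level per kb depend on the annotation of its neighbours. Over the gamma cluster 6 of 19 neighbouring pairs kept their order in all 6 libraries.

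The summed output of each cluster was close in TG and WT mice. Alpha members summed to 1994, 1866 and 2028 normalized read counts in the TG mice and to 1764, 2076 and 1894 in the WT mice. The beta sums were 5188, 6094 and 5309 in TG and 5038, 5973 and 5438 in WT mice. The gamma sums were 10268, 10275 and 10407 in TG and 10007, 10690 and 10447 in WT mice. In each cluster the ranges of the genotypes overlapped, and WT mouse 1 was the lowest of the 6.

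On the log2 scale the TG mean differed from the WT mean by 0.04 for alpha, 0.01 for beta and -0.01 for gamma, beside pooled SDs between mice of 0.09, 0.12 and 0.04. The differences were thus below 1 SD in all 3 clusters. Without Pcdhac2 the alpha sum of the TG mice was 105% of that of the WT mice, and without Pcdhgc5 the gamma sum was 98.6%. Over all members the TG mean was 17810 ± 397 and the WT mean 17776 ± 965 normalized read counts (SD, n = 3 each). Sums over members received no test.

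**Figure D2:**
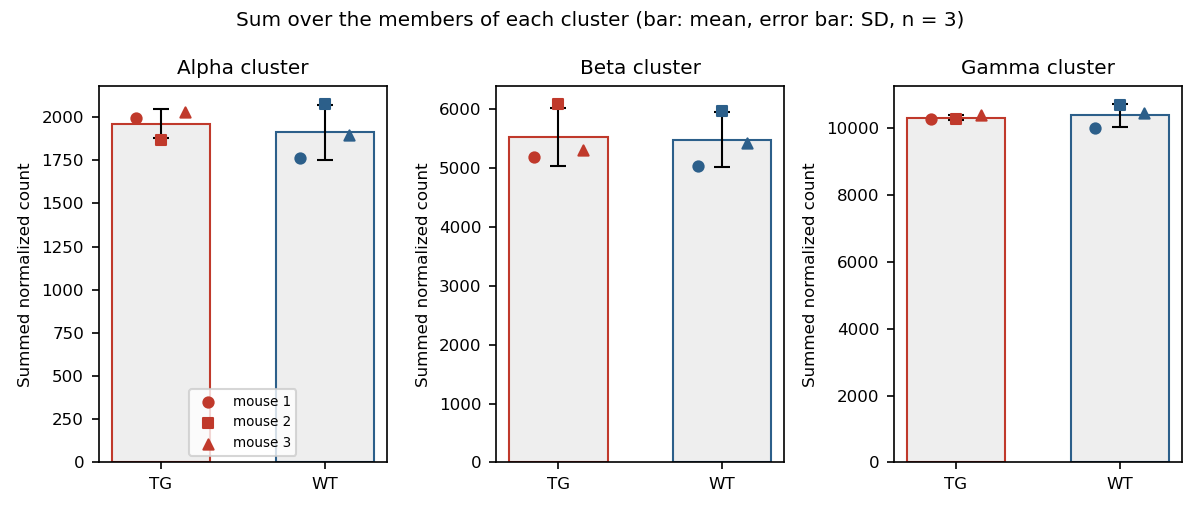
Summed normalized read count of the alpha, beta and gamma members in each mouse (symbols), with bars for the means and error bars for the SD over 3 mice. Symbols follow the mouse numbers, and the labels do not say whether these pair the mice. The ranges of the genotypes overlap in every panel, for example 1866 to 2028 in TG and 1764 to 2076 in WT mice for alpha.

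No clustered protocadherin differed between TG and WT mice in the test across all genes. Of the 57 members 53 had a mean of at least 10 normalized read counts and were tested with limma on log2(normalized read count + 1) together with all 17605 genes that passed this filter. With an adjusted P value of 0.05 as the limit, 0 of the 53 were called by limma, beside 0.00568% of all genes tested (1 gene, Shank3). DESeq2 called 0 of 56 members with a read, beside 0.017% of all genes, and edgeR called 0 of 53. At an unadjusted P value under 0.05 limma, DESeq2 and edgeR each counted 0 members, whereas limma counted 4.31% of all genes (1.98% higher and 2.33% lower in TG mice). The smallest adjusted P value of a member was 0.971 (limma).

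Log2 fold changes of the 53 members were above 0 in 29 and below 0 in 24, beside 49.2% above 0 over all genes tested. Their median was 0.06 over 12 alpha, 0.01 over 21 beta and -0.00 over 20 gamma members, and -0.00 over all genes tested. They ran from -0.36 for Pcdha8 to 0.28 for Pcdha3. A value that misses the threshold does not show that the level was equal, and the intervals say what the data allow. The typical 95% confidence interval reached 0.33 to either side for alpha members, 0.31 for beta, 0.22 for gamma and 0.16 for the C-types (medians, log2 scale).

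**Figure D3:**
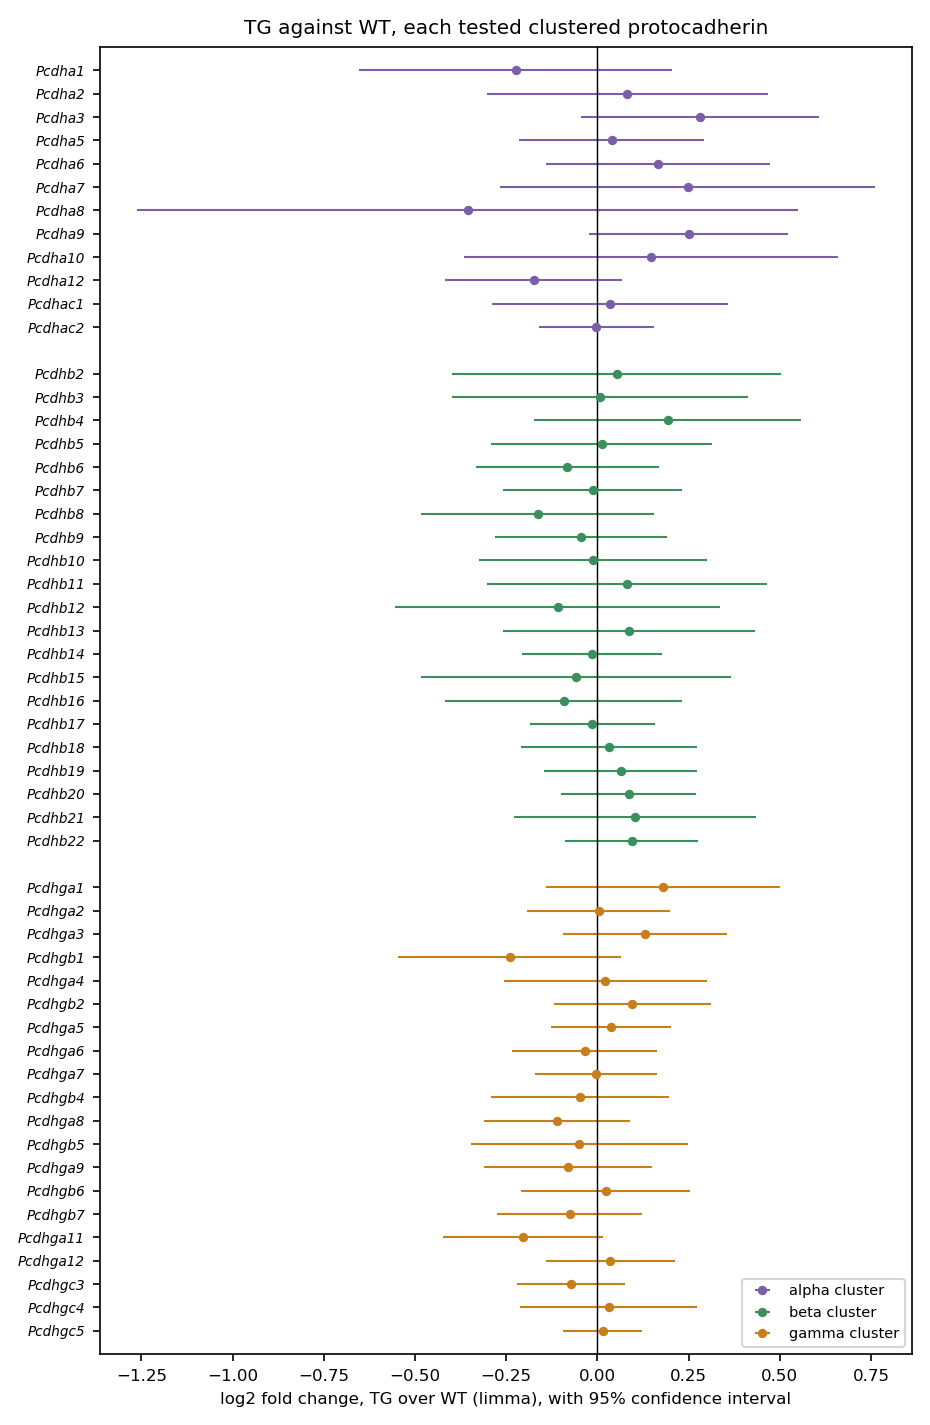
Log2 fold change, TG over WT, of each of the 53 tested members (points) with its 95% confidence interval from limma (lines), in genomic order within the clusters. Every interval includes 0, the widest is that of Pcdha8 from -1.26 to 0.55, and the narrowest intervals are those of Pcdhgc5 and other abundant members.

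The abundant C-type members gave the tightest limits. Pcdhgc5 was at 3566, 3345 and 3638 normalized read counts in the TG mice and at 3383, 3568 and 3491 in the WT mice. The genotypes overlapped, and the log2 fold change was 0.01 with an interval from -0.09 to 0.12. Pcdhac2 was at 969.6, 855 and 931 in the TG mice and at 855, 982 and 925 in the WT mice, which also overlapped, and its interval ran from -0.16 to 0.16.

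Pcdhgc3 was at 807, 805 and 716 in TG and at 837, 817 and 790.3 in WT mice. Its values overlapped, the log2 fold change was -0.07 and the interval ran from -0.22 to 0.07. For Pcdhgc4 the interval ran from -0.21 to 0.27 and for Pcdhac1 from -0.29 to 0.36. A difference of 0.5 on the log2 scale would lie outside the interval of each of these 5 members.

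Among alpha members Pcdha9 (ENSMUSG00000103770) was the 1 member of the 53 whose TG and WT values did not overlap, beside 10.1% of all genes tested (5.06% higher and 5.05% lower in TG mice). It was at 169, 138 and 141 normalized read counts in the TG mice and at 117, 126 and 133 in the WT mice, so every TG mouse was above every WT mouse. The log2 fold change was 0.25 ± 0.12 (SE), with an unadjusted P value of 0.0682 and an adjusted one of 0.971 in limma. The exact permutation test of 3 against 3 mice gave a two-sided P value of 0.1, the smallest it can give.

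Pcdha3 had the highest fold change of the members tested, at 112, 93.3 and 103 in the TG mice and at 80.1, 98.2 and 75.6 in the WT mice. WT mouse 2 lay above TG mouse 2, and the log2 fold change of 0.28 ± 0.15 had an interval from -0.05 to 0.61. Pcdha12, the highest alpha member after Pcdhac2, was at 159, 183 and 164 in TG and at 175, 189.9 and 206 in WT mice. The values gave a log2 fold change of -0.17 ± 0.11 and overlapped through TG mouse 2. Pcdha6 had a log2 fold change of 0.17 ± 0.14, with values from 88.4 to 108 in TG and from 84.7 to 97.3 in WT mice. The fold change of Pcdha8, -0.36 ± 0.41, rested on TG mouse 2 and was 0.13 without it.

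In the beta cluster the members with the smallest P values were Pcdhb8, Pcdhb4, Pcdhb22 and Pcdhb20, and all overlapped between the genotypes. Pcdhb4 was at 76.4, 74.2 and 68.2 in the TG mice and at 57.2, 77.6 and 57.9 in the WT mice, with a log2 fold change of 0.19 ± 0.17. WT mouse 2 was the highest of the 6. Pcdhb8 was at 146, 164 and 140.2 in TG and at 136, 177 and 196 in WT mice, with a log2 fold change of -0.16 ± 0.14. For the more abundant Pcdhb20 and Pcdhb22 the log2 fold changes were 0.09 ± 0.08 each, and in both the lowest mouse was WT mouse 1.

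In the gamma cluster Pcdhga11 came closest to the threshold, at an unadjusted P value of 0.0655 (limma). It was at 303, 262 and 332 normalized read counts in the TG mice and at 355, 349 and 326 in the WT mice, a log2 fold change of -0.20 ± 0.10. TG mouse 3 lay above WT mouse 3, so the genotypes overlapped. Pcdhgb1 was at 199, 230.4 and 201 in TG and at 198, 283 and 271 in WT mice. The difference was -0.24 ± 0.14 on the log2 scale, and WT mouse 1 lay below all TG mice.

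Pcdhga1 had a log2 fold change of 0.18 ± 0.14, with 142 to 165 in TG and 114 to 164 in WT mice. The log2 fold change of Pcdhga3 was 0.13 ± 0.10, with 444 to 528 in TG and 390.0 to 487 in WT mice. Pcdhgb5, the lowest gamma member per kb, differed by -0.05 ± 0.13. Fold changes of the gamma A members had a median of 0.00 and those of the gamma B members of -0.05, within the SE of single members.

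Leaving out 1 library brought between 0 and 2 of the 53 members under an unadjusted P value of 0.05 in each fit (limma). Over all genes the share was 4.31% with all 6 libraries, and for the fits with 1 left out it is not given here. Across the 6 fits 7 members reached such a value, none of them in more than 1 fit. They were Pcdha10 without TG mouse 1, Pcdhga11 without TG mouse 3, Pcdhb8 and Pcdhgb1 without WT mouse 1, Pcdha3 and Pcdha7 without WT mouse 2, and Pcdhga1 without WT mouse 3. No adjusted P value was under 0.05 in any of these fits (the smallest was 0.658). Pcdha9 stayed between 0.16 and 0.30 in log2 fold change over the 6 fits.

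The SD between mice of one genotype had a median of 0.153 on the log2 scale over the 53 members. Over the 2499 genes tested within the interquartile range of the members' means it was 0.126, and over the 27 members in that range 0.153. In 47 of 53 members it exceeded the SD that counting reads alone would give, and in 16 by more than 2-fold. These shares were 88.7% and 30.2% of all 53 members, beside 76.4% and 30.9% of all 17605 genes tested. The share above 2-fold was thus close to that over all genes. Over the 2499 genes, which span only the interquartile range of the members' means, the shares were 72.7% and 17.9%. For alpha members the median SD of 0.152 was close to the counting value of 0.155, whereas for beta members it was 0.183 beside 0.107 and for gamma members 0.124 beside 0.0787.

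Against all genes tested at a like level (20 bins of the mean), 19 of 21 beta members lay above the median SD of their bin and 12 above its upper quartile. For the alpha members these counts were 5 and 3 of 12, and for the gamma members 11 and 7 of 20. Members of one cluster share libraries and may move together, so these counts are a description.

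**Figure D4:**
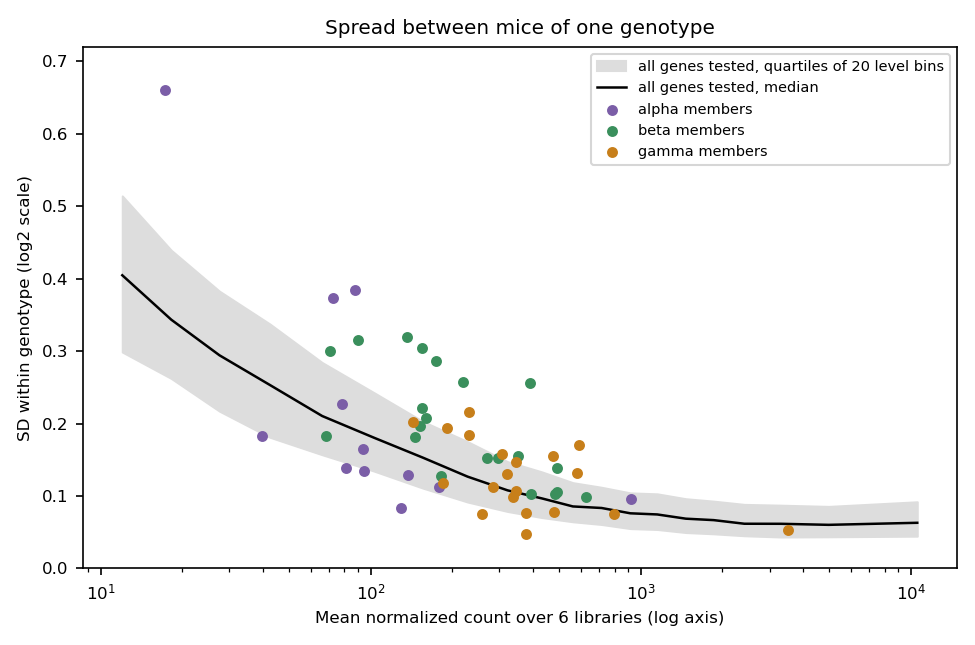
SD between mice of one genotype (log2 scale) against the mean normalized read count (log axis) for each tested member, with the median (line) and quartiles (grey) of all genes tested in 20 bins of the mean. Of the 21 beta members 19 lie above the line, and Pcdha8, at the left, has the highest SD of the members.

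Beta members were high and low in the same libraries. TG mouse 2 was the highest library for 10 of the 21 beta members tested and WT mouse 2 for 7, while WT mouse 1 was the lowest for 9 and TG mouse 1 for 6. The median deviation of the beta members from their own mean was 0.13 in TG mouse 2, 0.13 in WT mouse 2, -0.13 in WT mouse 1 and -0.08 in TG mouse 1 (log2 scale). In both genotypes, then, mouse 1 was low and mouse 2 was high, and the labels do not say whether the numbers pair the animals.

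The libraries with the fewest reads, WT mouse 1 and TG mouse 2, stood at opposite ends. In TG mouse 1, which held the most choroid plexus RNA, the beta sum was 5188, between those of WT mouse 1 and TG mouse 3. Medium spiny neuron markers were also lowest in TG mouse 1 (121107) and highest in TG mouse 2 (169974). Among the WT mice they were lowest in mouse 1 (146602) and highest in mouse 3 (169556), with mouse 2 at 152461. WT mouse 2 stood apart in the summed subventricular zone markers (3865, beside 2461 to 2975 in the other libraries) and ependymal markers (898, beside 508 to 692). TG mouse 2 was lowest in markers of cortical excitatory neurons (60448, beside 69988 to 76858). The part of read depth and of the cells behind these markers in the beta values was not tested.

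Over all clusters WT mouse 1 was the lowest library for 24 of the 53 members and WT mouse 2 the highest for 19. In the gamma cluster WT mouse 1 was the lowest for 10 of 20 members and WT mouse 2 the highest for 7. The alpha members were highest in WT mouse 2 for 5 and in TG mouse 3 for 4 of 12. Single members departed from this order, such as Pcdhgb5 (223 in WT mouse 1, 166 in TG mouse 2) and Pcdha10 (60.9, 95.5 and 124 in TG mice 1, 2 and 3).

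**Figure D5:**
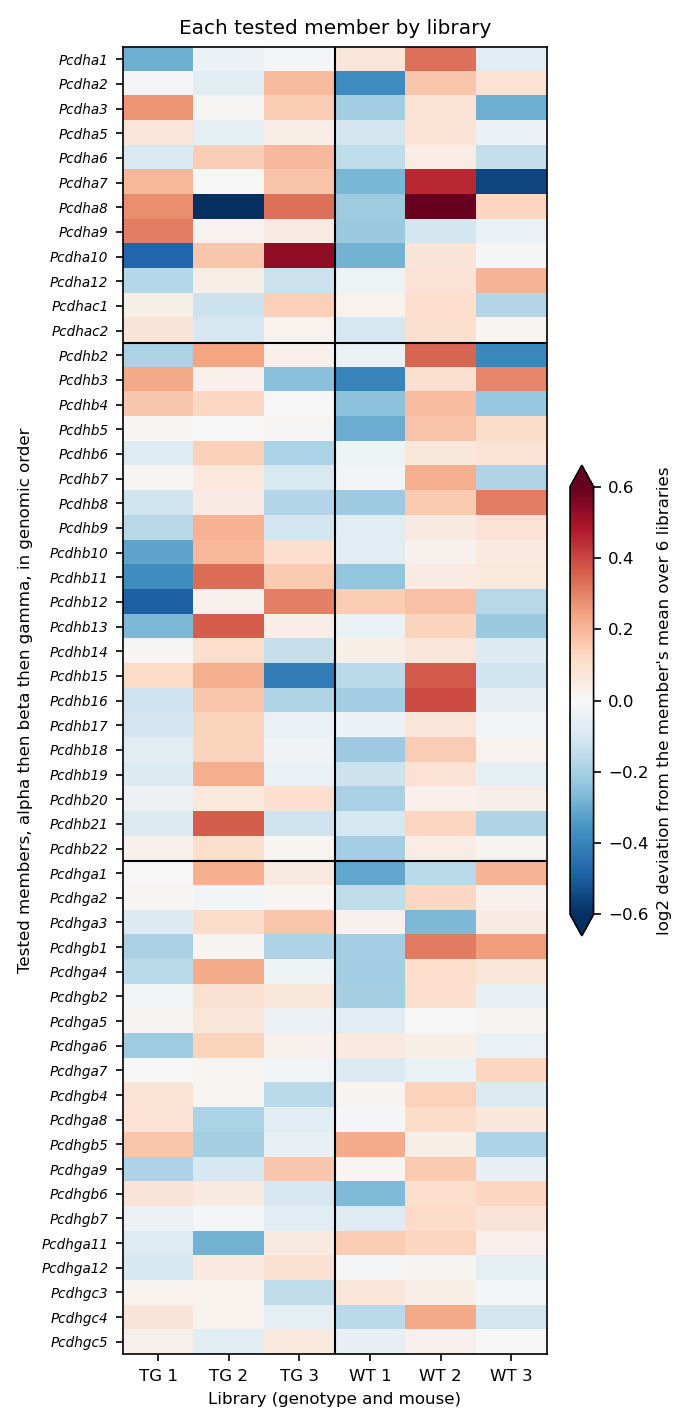
Deviation of each of the 53 tested members from its own mean over the 6 libraries (colour, log2 scale; columns are libraries, rows are members in genomic order, black lines part the clusters and the genotypes). In the beta rows TG 2 and WT 2 are mostly red (median 0.13 each) and WT 1 mostly blue (median -0.13), with no block that follows genotype.

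Genes related to the clustered protocadherins by function, family or position were compared through 5 lists. No gene of these lists passed an adjusted P value of 0.05 in limma, DESeq2 or edgeR. Beside each list stand 4.31% of all genes tested with an unadjusted P value under 0.05 (limma) and 10.1% without overlap. Of the 23 regulators of promoter choice and chromatin, all tested, 1 had an unadjusted P value under 0.05 and their median log2 fold change was 0.00. That gene was Wiz, a zinc finger protein found at CTCF sites, at 1624, 1432 and 1492 in the TG mice and at 1746, 1635 and 1633 in the WT mice (-0.14 ± 0.06). Its values did not overlap, and its adjusted P value was 0.971 (limma). The cohesin-associated Pds5b differed by 0.10 ± 0.06, CTCF itself (Ctcf) by -0.03 ± 0.05 and the cohesin subunit Rad21 by 0.04 ± 0.04.

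Of the 22 intracellular partners and processing enzymes, 1 had an unadjusted P value under 0.05 and 17 were above 0, with a median of 0.04. Psen2, a presenilin of the gamma-secretase that releases the cytoplasmic tails, was at 398, 381 and 390.5 in the TG mice and at 439, 448 and 425 in the WT mice (-0.17 ± 0.07), without overlap. Abi2, a subunit of the WAVE complex, differed by 0.10 ± 0.05. Without overlap were 5 of the 22 genes, 3 of them higher and 2 lower in TG mice.

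Non-clustered protocadherins, single genes outside the clusters, were all tested (12), and 9 were above 0 with a median of 0.07. Pcdh19, an X-linked gene of female-limited epilepsy, was at 948, 791 and 798 in the TG mice and at 664, 777 and 672 in the WT mice. Every TG mouse lay above every WT mouse, and the log2 fold change was 0.26 ± 0.09 with an unadjusted P value of 0.0132 and an adjusted one of 0.971 (limma). Pcdh8, a synaptic protein induced by neuronal activity, differed by 0.23 ± 0.17 and overlapped. In level per kb of own exon Pcdh1 stood beside Pcdhgc5, at 775 normalized read counts, and Pcdh9, Pcdh10 and Pcdh7 stood between 441 and 533.

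Of the large atypical cadherins 8 of 9 were tested, 2 had an unadjusted P value under 0.05, 6 were below 0 and the median was -0.05. Celsr1, a planar cell polarity cadherin, was at 354, 325 and 344 in the TG mice and at 403, 437 and 405 in the WT mice, without overlap (-0.28 ± 0.08, unadjusted P value of 0.00407, adjusted 0.971, limma). Celsr3, which guides axons, differed by -0.13 ± 0.06 (unadjusted P value of 0.0437, adjusted 0.971, limma). Of 10 genes that flank or lie between the clusters 9 were tested, with a median of -0.01 and none under an unadjusted P value of 0.05. Wdr55, upstream of the alpha cluster, was lower in every TG mouse (274 to 290.0) than in any WT mouse (306 to 318), with a log2 fold change of -0.14 ± 0.08. Hars differed by 0.06 ± 0.05. Within the stretch that holds the clusters, Taf7 was at 233 to 305 in TG and 269 to 285 in WT mice (-0.09 ± 0.11).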

How the data were processed

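Striatal RNA from 3 TG and 3 WT mice was prepared with the TruSeq RNA Sample Prep Kit v2, which does not mark strand, and sequenced in read pairs of 101 bases. The authors trimmed the reads with Trimmomatic 0.35, aligned them to GRCm38 with TopHat2 2.1.0 and obtained gene counts with HTSeq. The deposited signal is a gene's read count over the size factor that DESeq2 gave its library (normalized read count). The annotation release, the HTSeq mode and its strand setting are not given in the sources used here. Multiplying by the size factor gave whole reads within 0.01 for 100% of values, between 27689589 and 36647626 per library, and no library was a copy of another. Nothing says whether mice shared a litter, and the tests treated the mice as independent. P values set the difference between the genotypes against the spread between these animals.

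Own exon bases are those that no other gene of GENCODE M21 covers on either strand. limma 3.58.1 (R 4.3.3) with a mean-variance trend was run on log2(normalized read count + 1) for the 17605 genes whose mean reached 10, without covariates, two-sided, with Benjamini-Hochberg adjustment over all of them at 0.05. A fold change on this scale understates that of low genes. DESeq2 1.42.0 (no prior) and edgeR 4.0.16 on recovered reads, other scalings, filters, pseudocounts, a replicate block and each library left out were alternatives. The fits were tested on simulated data. Deviations of same-numbered TG and WT mice from their group means correlated at 0.05, 0.02 and 0.09, beside -0.12 to 0.08 for other pairs. The labels do not say that the numbers pair the mice, and with 3 mice per genotype these correlations cannot decide it. Members with full values are the C-types, the 4 of lowest P value per cluster, the highest and lowest per kb, and any without overlap. Pcdha1, Pcdha7 and Pcdha10 and the members named for their level or for a single library were named after their values were seen, and other genes are Shank3, per list the 2 with the lowest P values and a few more (Ctcf, Rad21, Taf7, Pcdh1, Pcdh7, Pcdh9, Pcdh10) also named after their values were seen. Members and lists were chosen with earlier results of these data known. No sequence is printed.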

Additional observations from a re-analysis of the deposited data

How the results depend on the processing

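No alternative called a clustered protocadherin: DESeq2, edgeR, scaling by TMM or by totals, pseudocounts of 0.5 and 5, omitting the filter or raising it to a mean of 50, an adjusted P value under 0.1 and each library left out gave 0. The replicate block also gave 0 (smallest adjusted P value 0.853) and changed no other call, and the labels do not say whether the numbers pair the mice. With any 1 of the 6 libraries left out, the members without overlap numbered between 4 and 9 in place of 1, beside 17.0% to 25.6% of all genes, because 2 values against 3 overlap less often. Of 284 alternative fold changes of the 19 named members none was called, and 14 had the other sign, all but 1 of them with a library left out. Medians of log2 fold change ranged from -0.00 to 0.14 (alpha), -0.07 to 0.10 (beta) and -0.05 to 0.02 (gamma), so their sign is not settled, nor is that of the summed levels. The correlation of order with level in the gamma cluster was 0.0858 with all exon bases and -0.10 with opposite-strand overlaps counted, in place of 0.19, and the cause was not tested. Reads on constant exons are missing from all alpha and gamma values, and the unadjusted 95% interval of the typical member reached 0.25 to either side on the log2 scale.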

Other observations

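Pcdhgb8, a gamma B gene that GENCODE M21 lists as a polymorphic pseudogene and that is therefore not among the members, was at 70.4, 60.7 and 57.5 normalized read counts in the TG mice and at 83.5, 74.8 and 82.5 in the WT mice. Every TG mouse lay below every WT mouse, and the log2 fold change was -0.35 ± 0.15 with an unadjusted P value of 0.0381 and an adjusted one of 0.971 (limma). Among all genes tested 2.33% were lower at an unadjusted P value under 0.05.

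The stretch of chromosome 18 that holds the clusters contains 28 annotated genes that are not members, of which 7 were tested and 7 were listed at 0 in every library. Those at 0 include Gm42416, Gm37013 and Gm37388, protein-coding read-through genes whose exons all lie on exons of other genes. Gm26672, which lies opposite Pcdhga10, was at 26.6, 18 and 21.4 normalized read counts in the TG mice and at 29.8, 17.8 and 15.7 in the WT mice, with a log2 fold change of 0.09 ± 0.29. Gm37446, which lies opposite Pcdhb12, was at 6.86 to 15.6 in TG and 7.85 to 14.0 in WT mice. The kit does not mark strand, so reads from these transcripts and from the protocadherins opposite them cannot be told apart where their exons overlap.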
